A study of Homo sapiens with 8 samples.

Results

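Endoplasmic reticulum (ER) chaperones and unfolded protein response (UPR) genes were followed in SK-N-MC cells after siRNA against YAP1 and TAZ. The 10 genes listed were HSPA5, HSP90B1, PDIA4, PDIA6, CALR, HERPUD1, DNAJB9, SDF2L1, XBP1 and HYOU1. The array groups its probes by locus into transcript clusters, and a gene was measured where a cluster carried its symbol and no other. Of several such clusters the brightest on average was to be used. This gave 9 of the 10 genes, each with 1 cluster, among 22411 genes tested. HSP90B1 shares its cluster with a second symbol and is not analysed here.

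SK-N-MC is an established Ewing sarcoma cell line, and YAP1 and TAZ (encoded by WWTR1) are transcriptional co-activators held back by the Hippo pathway. Both groups were this line, transfected with the same reagent at an siRNA concentration of 10 nM and collected at 72 h. The control group, 4 cultures, received a non-targeting siRNA, and the other group, also 4 cultures, received a mix of siRNAs to YAP1 and TAZ. Values are log2 signals as deposited, and a difference is the mean of the YAP1/TAZ siRNA arrays minus the mean of the control arrays. YAP1 read 7.64, 7.72, 7.71 and 7.66 in control replicates 1 to 4 and 6.27, 6.41, 6.42 and 6.40 with YAP1/TAZ siRNA, 59.6% lower on the linear scale (limma adjusted p = 4.73e-05). WWTR1 read 6.52, 6.39, 6.42 and 6.57 against 5.74, 5.91, 5.91 and 5.86, 34.9% lower (limma adjusted p = 0.00898). Both targeted transcripts were thus lower on every knockdown array than on any control array.

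The array medians lay between 4.34 and 4.49. Of the Ewing sarcoma markers measured, 7 of 7 had a mean above the highest array median, against 1 of 6 epithelial, 1 of 6 blood and plasma cell, 3 of 5 neuroblastoma and 5 of 5 fibroblast markers. Control replicate 4 and YAP1/TAZ siRNA replicate 2 stood apart from the rest on the first principal component (46.0% of the variance), so the members are given with and without them where a value turns on it. The number of arrays limits the precision. In RNA of whole cultures, fewer cells of a type and less RNA per cell cannot be told apart.

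The ER folds secreted and membrane proteins with chaperones of the HSP70 and HSP90 families, lectin chaperones and disulfide isomerases. When unfolded proteins build up there, the sensors IRE1 (ERN1), PERK (EIF2AK3) and ATF6 start the UPR. IRE1 splices XBP1 mRNA into a form that encodes an active transcription factor, ATF6 is cut by the site-1 and site-2 proteases to free another, and PERK slows translation while ATF4 is made. XBP1 and ATF6 act through the ER stress response element (ERSE) in chaperone promoters, so BiP and its partners are commonly induced together.

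Of the 9 members 0 passed a limma adjusted p of 0.05 over all genes, a threshold that 0.214% of all genes passed (0.134% higher and 0.0803% lower). PDIA4 was higher and HSPA5 and HERPUD1 were lower with YAP1/TAZ siRNA, while the differences of the other 6 lay between −0.13 and 0.07. These 3 members had an unadjusted limma p under 0.05, as had 10.3% of all genes, with 1 of 9 higher (7.13% of all genes) and 2 of 9 lower (3.19% of all genes). The median difference of the 9 was −0.04, with 6 below 0 and 3 above, against a median of 0.01 over all genes.

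**Figure D1:**
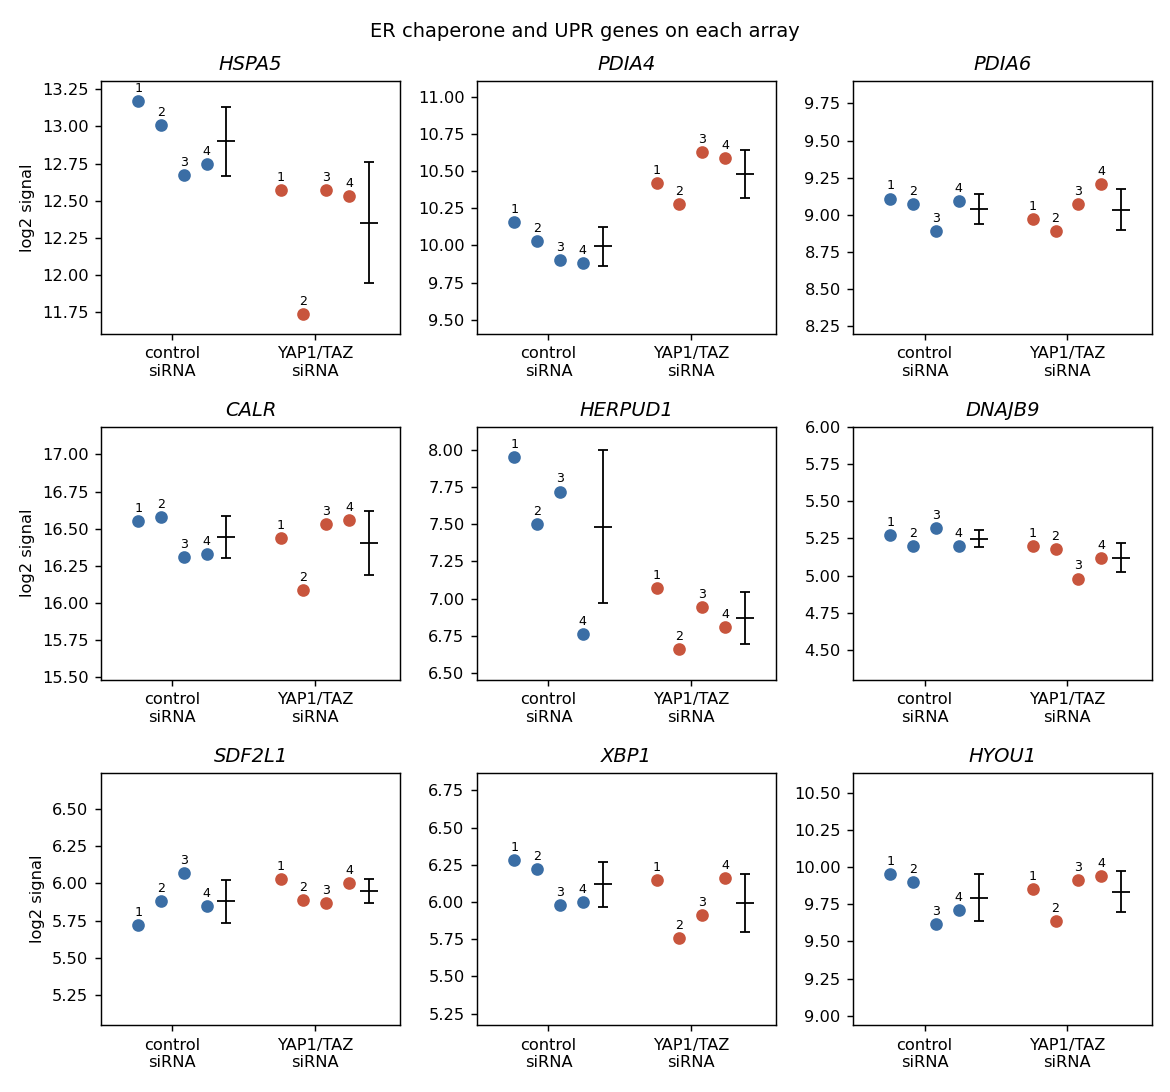
Log2 signal (y axis, the same span in every panel) of the 9 measured genes on each array, with the replicate number above each point and the mean ± SD of 4 arrays beside it. PDIA4 and HSPA5 show 2 groups that do not meet, in opposite directions, and control replicate 4 of HERPUD1 lies among the YAP1/TAZ siRNA arrays.

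HSPA5 encodes BiP, the HSP70 chaperone of the ER lumen, which also holds the 3 stress sensors inactive. Its control arrays read 13.17, 13.01, 12.67 and 12.75 in replicates 1 to 4, and its YAP1/TAZ siRNA arrays 12.57, 11.74, 12.57 and 12.53. Every YAP1/TAZ siRNA array lay below every control array, with a gap of only 12.57 to 12.67 between the groups, and replicate 2 lay far below the other 3. The means were 12.90 ± 0.23 and 12.35 ± 0.41 (SD, n = 4 per group), a difference of −0.55 (SE 0.20, 95% interval −1.0 to −0.10), which is 31.6% lower on the linear scale. The limma adjusted p was 0.376. Without YAP1/TAZ siRNA replicate 2 the difference was −0.34 (limma adjusted p = 0.203), so this array set much of its size. Without both arrays that stood apart the difference was −0.39 (limma adjusted p = 0.175).

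PDIA4 (ERp72) is a disulfide isomerase with several thioredoxin-like domains, found in the ER lumen in complexes with BiP. Its control arrays read 10.16, 10.03, 9.90 and 9.88, and its YAP1/TAZ siRNA arrays 10.42, 10.28, 10.63 and 10.59. Every YAP1/TAZ siRNA array lay above every control array. The means were 9.99 ± 0.13 and 10.48 ± 0.16 (SD, n = 4 per group), a difference of 0.49 (SE 0.095, 95% interval 0.27 to 0.70) or 1.40-fold, with a limma adjusted p of 0.102. Without YAP1/TAZ siRNA replicate 2 it was 0.55 and passed (limma adjusted p = 0.0416), and without both arrays that stood apart it was 0.52 and did not (limma adjusted p = 0.0551). Groups that do not overlap were found for 2 of 9 members, and for 6.22% of all genes (4.19% with YAP1/TAZ siRNA higher, 2.03% with it lower).

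The pair was singled out for moving in opposite directions, so its contrast is a description with no test. The log2 signal of PDIA4 minus that of HSPA5 was −3.01, −2.98, −2.77 and −2.87 on the control arrays. On the YAP1/TAZ siRNA arrays it was −2.15, −1.46, −1.94 and −1.94. The means were −2.91 ± 0.11 and −1.87 ± 0.29 (SD, n = 4 per group), so the balance of these transcripts differed by 1.04, or 2.05-fold, between the groups. Within a group the transcripts did not oppose each other: control replicate 1 was the highest control and YAP1/TAZ siRNA replicate 2 the lowest knockdown array for both. The former was the highest control for 6 of the 9 members and the latter the lowest knockdown array for 7, so this is not particular to the pair. The opposite direction lay between the groups, and it was present on all 4 knockdown arrays. With any 1 array left out the contrast was between 0.90 and 1.13. Since neither gene's groups overlap and the pair was chosen for its directions, a kept sign was fixed in advance and lends no support. These arrays give RNA levels at 1 time, and why the directions differ was not tested.

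**Figure D2:**
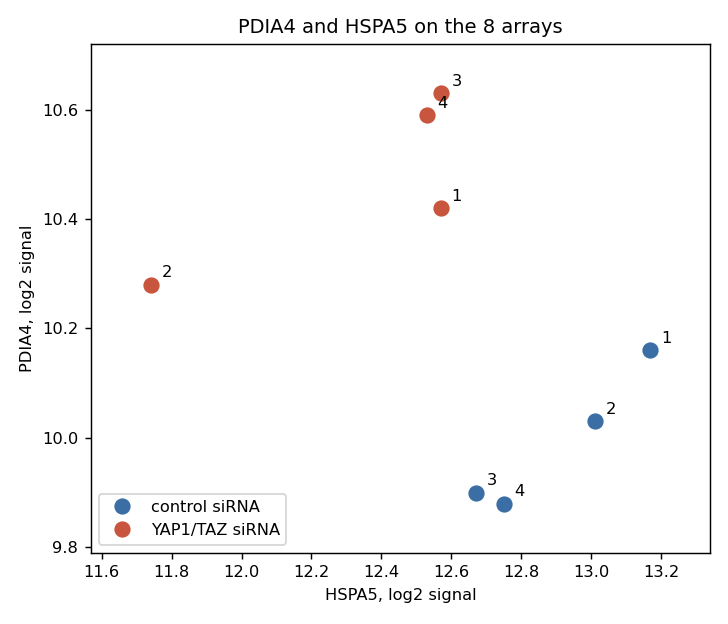
Log2 signal of HSPA5 (x axis) and PDIA4 (y axis) on the 8 arrays, with replicate numbers. The control arrays sit at the lower right (HSPA5 at or above 12.67, PDIA4 at or below 10.16) and the YAP1/TAZ siRNA arrays at the upper left, with replicate 2 farthest left at 11.74.

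Over the 8 arrays, and among 10215 named genes whose mean signal exceeded the all-gene median, the patterns most like that of PDIA4 were those of HDAC1 (Pearson r = 0.987), HLA-B (0.987), B4GALNT1 (0.986), ZC3H12C (0.984) and SDK1 (0.984). Those most like HSPA5 were WDR75 (0.985), CCDC93 (0.985), TMEM117 (0.981), VANGL1 (0.981) and LAMC1 (0.979). No other member was among either 5. These r values rest on 8 points that share the group difference and the arrays that stood apart. Of the other members, XBP1 (0.83), CALR (0.77) and HERPUD1 (0.72) had the highest r with HSPA5, and HYOU1 (0.55) the highest with PDIA4. PDIA4 and HSPA5 themselves correlated by −0.33, and the lowest r with PDIA4 was that of DNAJB9 (−0.77).

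Because the pair differs in direction, the bases before their transcription starts are shown, with those of DNAJB9, from RefSeq (GRCh38.p14). All 3 are the 250 bases before an annotated start, read 5′ to 3′ on the gene's strand. HSPA5 (chr9:125241344-125241593, minus strand) holds an ERSE, in capitals, which is CCAAT followed after 9 bases by CCACG. Only this full match is in capitals there, and further CCAAT and ATTGG letters of HSPA5 are left in lower case. PDIA4 (chr7:149028491-149028740, minus strand) and DNAJB9 (chr7:108569624-108569873, plus strand) hold the letters CCAAT and CCACG, or their reverse complements ATTGG and CGTGG, in capitals, at other spacings.
HSPA5: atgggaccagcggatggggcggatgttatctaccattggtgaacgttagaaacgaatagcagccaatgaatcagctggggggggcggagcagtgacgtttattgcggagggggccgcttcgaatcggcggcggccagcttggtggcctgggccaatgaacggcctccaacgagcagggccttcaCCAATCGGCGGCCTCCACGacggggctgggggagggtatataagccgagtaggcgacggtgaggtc
PDIA4: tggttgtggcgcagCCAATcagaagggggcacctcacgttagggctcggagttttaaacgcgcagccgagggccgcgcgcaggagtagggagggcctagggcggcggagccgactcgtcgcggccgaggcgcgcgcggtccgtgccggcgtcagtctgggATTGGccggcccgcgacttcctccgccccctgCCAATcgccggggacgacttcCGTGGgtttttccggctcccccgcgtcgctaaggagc
DNAJB9: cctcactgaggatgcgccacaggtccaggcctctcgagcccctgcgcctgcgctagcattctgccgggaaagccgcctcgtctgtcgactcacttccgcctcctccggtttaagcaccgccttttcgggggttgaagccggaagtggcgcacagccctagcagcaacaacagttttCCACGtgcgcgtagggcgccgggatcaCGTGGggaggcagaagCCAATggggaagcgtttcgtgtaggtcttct

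Windows of 250 bases before to 50 after each annotated start were searched on both strands for ERSE and for ERSE-II, which is ATTGG, 1 base and CCACG. Of the 9 measured members 7 held one or the other, against 0.161% of 27305 genes in the RefSeq promoter table, and the 2 without were PDIA4, which has 2 windows, and DNAJB9. These members are known UPR genes, so an excess of the element among them is background knowledge and no result of the arrays. ERSE stood in HSPA5, PDIA6, CALR and XBP1, and ERSE-II in HERPUD1, SDF2L1 and, at 2 places, HYOU1. PDIA6 and XBP1, like PDIA4, each have 2 windows, and in each of them only 1 window held an ERSE. The matches are printed here to show how the spacer varies, as read on each gene's strand, so that those of CALR, SDF2L1 and HYOU1 appear as the reverse complement.
HSPA5: CCAATCGGCGGCCTCCACG
PDIA6: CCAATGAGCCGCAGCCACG
CALR: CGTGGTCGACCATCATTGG
XBP1: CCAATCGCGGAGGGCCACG
HERPUD1: ATTGGGCCACG
SDF2L1: CGTGGACCAAT
HYOU1: CGTGGTCCAAT

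Of the 3 members with an unadjusted limma p under 0.05, HSPA5 and HERPUD1 held a match and PDIA4 held none. The differences of PDIA6, CALR, SDF2L1, XBP1 and HYOU1, which also held a match, lay between −0.13 and 0.07. DNAJB9, without a match like PDIA4, differed by −0.13. Whether the match bears on the direction was not tested. The UPR element TGACGTGG, which overlaps 1 ERSE-II match, was found in HYOU1 alone (0.927% of all genes held it). The amino acid response element, TGATG, any base and AAT, was found in 0 of the 9 (1.22% of all genes), and CATTCC, the core to which TEAD proteins bind, also in 0 (16.7% of all genes), the last search being added after the values were seen. No match says only that these letters are not in these windows.

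For the other lumenal folding factors the groups overlapped. CALR encodes calreticulin, the lectin chaperone that binds glycoproteins and calcium. It read 16.55, 16.58, 16.31 and 16.33 on the control arrays and 16.44, 16.09, 16.53 and 16.56 on the YAP1/TAZ siRNA arrays. The difference was −0.04 (95% interval −0.30 to 0.22, limma adjusted p = 0.959). PDIA6 encodes another disulfide isomerase, one that also tempers IRE1 and PERK signalling. It read 9.11, 9.07, 8.89 and 9.09 against 8.97, 8.89, 9.07 and 9.21, a difference of −0.01 (95% interval −0.19 to 0.18, limma adjusted p = 0.992). The PDIA6 interval leaves out a change as large as that estimated for PDIA4.

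HYOU1 (GRP170) is the large HSP70-like protein that exchanges nucleotide on BiP. It read 9.95, 9.90, 9.62 and 9.71 on the control arrays and 9.85, 9.64, 9.91 and 9.94 on the YAP1/TAZ siRNA arrays, a difference of 0.04 (95% interval −0.18 to 0.26, limma adjusted p = 0.941). SDF2L1 works with ER J proteins in BiP complexes that limit aggregation. It read 5.72, 5.88, 6.07 and 5.85 against 6.03, 5.89, 5.87 and 6.0, a difference of 0.07 (95% interval −0.11 to 0.25, limma adjusted p = 0.860). The intervals of these BiP partners, like that of calreticulin, reach neither the estimate for HSPA5 nor that for PDIA4. SDF2L1 lay nearer to the array medians than HYOU1 and CALR, and no background level was given. Its interval therefore cannot set aside a larger change.

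HERPUD1 encodes an ER membrane protein that organises ER-associated degradation. It had the largest difference of the 9, but not the clearest separation. Its control arrays read 7.95, 7.50, 7.72 and 6.76, and its YAP1/TAZ siRNA arrays 7.07, 6.66, 6.94 and 6.81. The groups overlapped through control replicate 4, which lay below 3 of the 4 knockdown arrays. The means were 7.48 ± 0.52 and 6.87 ± 0.18 (SD, n = 4 per group), a difference of −0.61 (SE 0.23, 95% interval −1.13 to −0.09) or 34.6% lower on the linear scale, with a limma adjusted p of 0.388. Without control replicate 4 the difference was −0.85 (limma adjusted p = 0.0825), and without it and YAP1/TAZ siRNA replicate 2 it was −0.78 and passed (limma adjusted p = 0.0471).

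XBP1 encodes the transcription factor made by IRE1 splicing, and its cluster gives 1 value that does not separate the spliced from the unspliced form. It read 6.28, 6.22, 5.98 and 6.0 on the control arrays and 6.15, 5.76, 5.91 and 6.16 on the YAP1/TAZ siRNA arrays. The groups overlapped, with a difference of −0.13 (95% interval −0.38 to 0.13, limma adjusted p = 0.791). DNAJB9 (ERdj4), a BiP co-chaperone and a standard target of spliced XBP1, read 5.27, 5.20, 5.32 and 5.20 against 5.20, 5.18, 4.98 and 5.12. The groups touched at 5.20, with a difference of −0.13 (95% interval −0.27 to 0.02, limma adjusted p = 0.544).

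Arrays as well as groups ordered the members. YAP1/TAZ siRNA replicate 2 was the lowest knockdown array for 7 of the 9 members, all but DNAJB9 and SDF2L1, and the highest for 0. That array stood apart over all genes, and the share of all genes lowest on it was not counted. The count therefore cannot be called a trait of the members. Among the controls, replicate 3 was lowest for 5 and replicate 1 highest for 6. Control replicate 4, which stood apart together with YAP1/TAZ siRNA replicate 2, was lowest for 3, with a tie for DNAJB9. The array median was highest on these same 2 arrays, at 4.48 and 4.49. What part this has in the members' values was not tested.

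**Figure D3:**
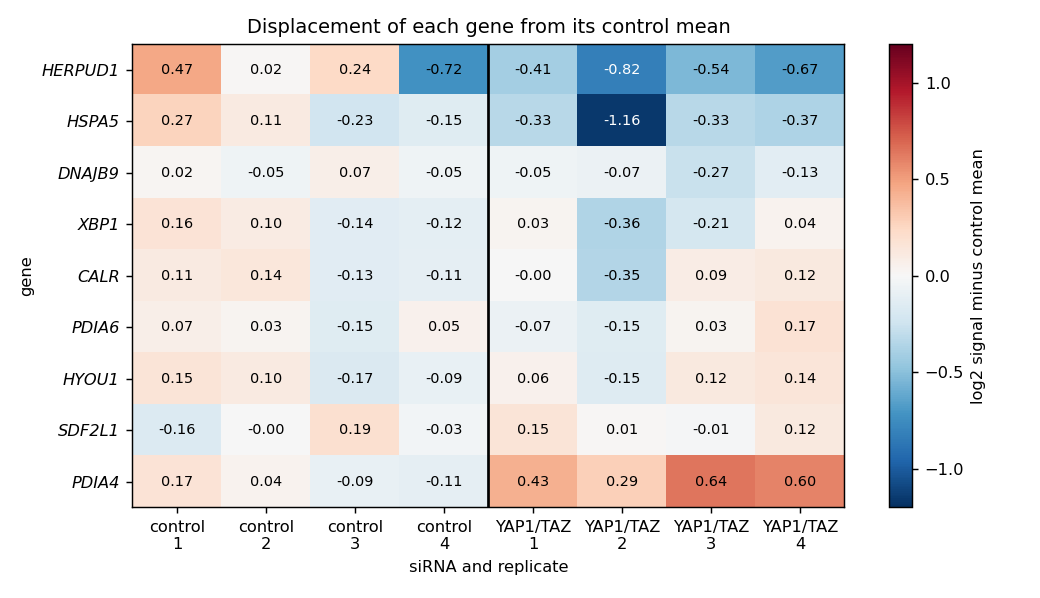
Log2 signal of each gene on each array minus its mean over the 4 control arrays (colour and printed value), with genes ordered by their difference between groups. PDIA4 is above its control mean on all 4 YAP1/TAZ siRNA arrays (0.29 to 0.64) and HSPA5 below it on all 4 (−1.16 to −0.33).

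The rest of the pathway was read from 7 lists by role, with 108 genes measured. Of these 0 passed the adjusted threshold (0.214% of all genes). At an unadjusted limma p under 0.05, 5 were higher and 8 lower, against 7.13% and 3.19% of all genes, and the median difference was −0.03. Among 9 sensors, proteases and related factors the median was −0.02. ATF6 differed by −0.07 (limma adjusted p = 0.833), ERN1 by 0.01 (0.976) and EIF2AK3 by 0.10 (0.737). The lowest was CREB3L1, a relative of ATF6 (−0.16). The highest was MBTPS1, the site-1 protease that cuts ATF6, at 7.49, 7.49, 7.29 and 7.31 on the control arrays and 7.74, 7.49, 7.83 and 7.75 on the YAP1/TAZ siRNA arrays. Its groups touched at 7.49, and the difference was 0.31 (limma adjusted p = 0.233).

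Of 19 further disulfide isomerases and oxidases, 8 differences lay above 0 and 11 below, with a median of −0.03. P4HB, the founding isomerase, differed by 0.10 (limma adjusted p = 0.914), and PDIA3, the glycoprotein isomerase, by −0.10 (0.749). The highest was VKORC1L1, a vitamin K epoxide reductase, at 0.43 (0.190), and the lowest ERO1A, the oxidase that recharges the isomerases, at −0.34 (0.629). Of 16 ER J proteins and other lumenal factors the median was −0.01. DNAJC3 differed by −0.02 (limma adjusted p = 0.979), DNAJB11 by −0.07 (0.889), CRELD2 by −0.01 (0.980) and MANF by 0.02 (0.944). SERPINH1, the collagen chaperone HSP47, was the lowest at −0.39 (0.419), and FKBP7 the highest at 0.07.

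Calnexin cycle and N-glycan genes had a median of 0.00 over 13 measured, with CANX, the membrane lectin calnexin, at 0.03 (limma adjusted p = 0.946). LMAN1, a cargo receptor that leaves the ER, was the lowest at −0.35 (0.170), and MCFD2, its partner, the highest at 0.11. In the degradation list the median was −0.04 over 20 measured. SEL1L, the scaffold of the HRD1 ligase, differed by −0.09 (limma adjusted p = 0.882) and EDEM1, which feeds glycoproteins to it, by −0.08 (0.765). The extremes were VCP, the extracting ATPase, at 0.24 and FAF2 at −0.18. Translocon genes had a median of 0.00 over 16 measured, from TRAM1 at −0.14 to SRPRA, a subunit of the signal recognition particle receptor, at 0.39 (limma adjusted p = 0.412).

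The PERK arm and integrated stress response list had the lowest median of the 7, −0.16 over 15 measured, with 13 of them below 0. At an unadjusted limma p under 0.05 there were 6 lower and 1 higher, against 3.19% and 7.13% of all genes, and 0 passed the adjusted threshold. CHAC1, a glutathione-degrading enzyme, was the lowest at −1.14 (limma adjusted p = 0.375), and EIF2S1, the subunit that PERK phosphorylates, the highest at 0.17. CHAC1 read 8.61, 7.40, 7.79 and 6.24 on the control arrays and 6.48, 6.19, 6.42 and 6.39 on the YAP1/TAZ siRNA arrays. Its groups overlapped through control replicate 4. ATF4, the factor translated when PERK is active, read 11.39, 11.17, 11.28 and 10.77 on the control arrays and 10.96, 10.70, 10.93 and 10.95 on the YAP1/TAZ siRNA arrays, a difference of −0.27 (limma adjusted p = 0.540). DDIT3 (CHOP) read 5.77, 5.71, 5.88 and 5.57 against 5.56, 5.51, 5.52 and 5.50, a difference of −0.21 (0.320). Control replicate 4 was the lowest control for ATF4 and DDIT3, as it was for CHAC1 and HERPUD1, whereas for HSPA5 that was replicate 3.

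**Figure D4:**
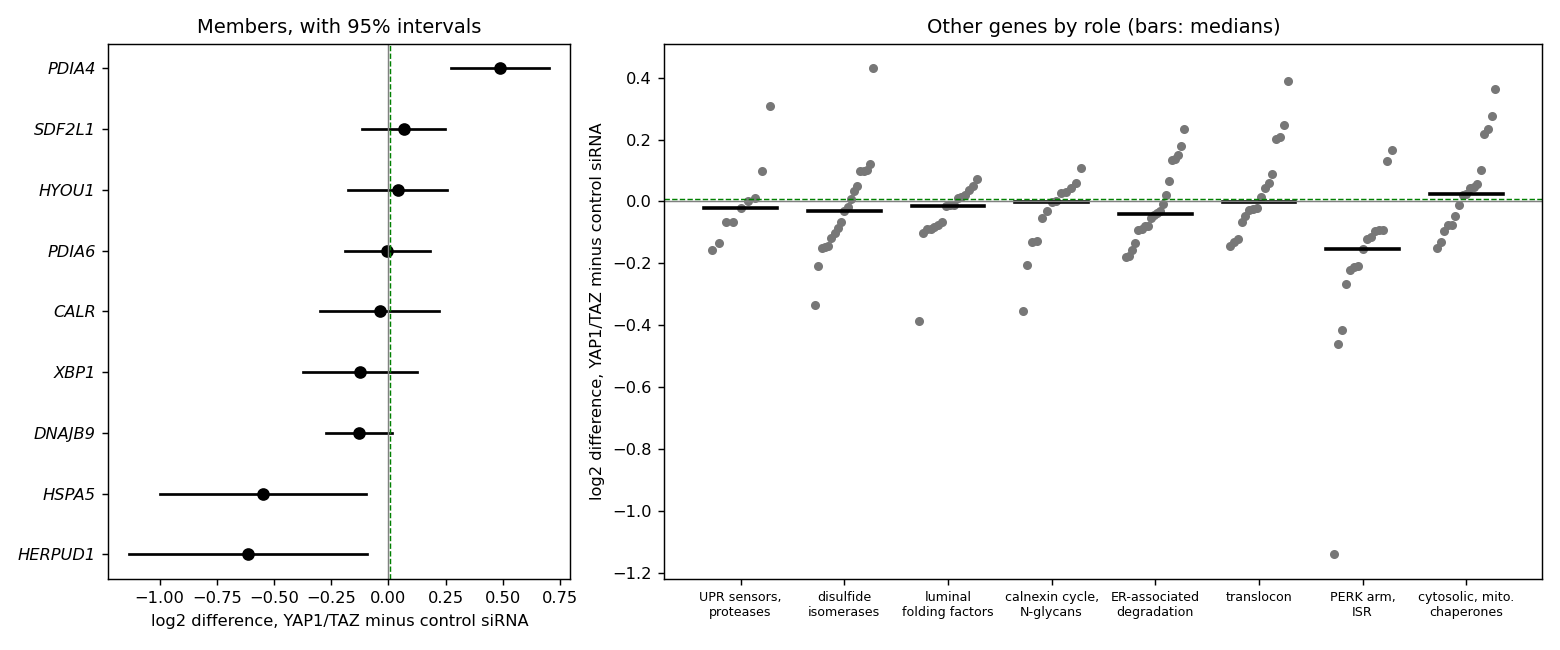
Log2 difference between YAP1/TAZ siRNA and control siRNA for the 9 members with limma 95% intervals (left), and for the other genes by role, each point a gene and each bar a list's median (right). The green dashed line is the median of all genes, 0.01, and the PERK list has the lowest median, −0.16.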

How the data were processed

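The arrays were hybridised with cRNA made with a whole-transcript kit, per the labels' protocols. The submitters' processing notes name Transcriptome Analysis Console as the program behind the deposited log2 signals. Its version, the normalization, the summary method and the build were not stated in any source read for this work, and summaries over many probes can compress differences. The log2 scale was read from the values, which ran from 2.27 to 19.93.

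Clusters with 1 platform symbol (23781 of 67528) were kept, their symbols were updated through RefSeq, and 1 cluster per gene gave 22411 genes. No filter on dim genes was applied. Each gene's difference was tested by limma (3.58.1, under R 4.3.3) through lmFit and eBayes, with 6 residual and 2.78 prior degrees of freedom, and p-values were adjusted by Benjamini-Hochberg over every gene. In a simulation of this comparison on 22411 genes, 63% of the genes given a difference of 0.5 and 94% of those given 1 were found. Its noise was independent for every gene and array, without arrays that stand apart, and the changed genes were picked at random. These shares therefore do not say how often a change in a given member would be found. Intervals use the moderated standard error. Exact permutation tests were planned for PDIA4 and HSPA5 alone and are not given, since groups that do not overlap fix their p.

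Members, lists and alternatives were chosen with earlier results of these data known. Named genes were the members, YAP1, WWTR1, a fixed set of 16 pathway genes (HSPA8 not analysed here), the highest and lowest of each list, and the 5 patterns most like PDIA4 and HSPA5. The labels give separate cultures handled in parallel, so p-values cover the spread between these cultures. Deviations of arrays with the same replicate number correlated by 0.37, −0.47, 0.02 and −0.39, so no common pairing by number was seen. The pair of arrays that stood apart, which differ in number, correlated by 0.61. Since that pair weighs on these values, they cannot decide whether same-numbered cultures shared a batch.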

Additional observations from a re-analysis of the deposited data

Results flagged for a closer look

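Groups of 4 arrays were searched for a single array far from the other 3, by the gap to its neighbour over the group's range (Dixon's test at the 95% level), in 82 groups of the named genes. Chance alone picks about 1 in 20 independent groups, and 10 were picked here. That rate is only a guide, since the groups share arrays and some genes were named as the highest or lowest of their list. Among the members only HSPA5 was picked, with YAP1/TAZ siRNA replicate 2 at 11.74 against 12.53 to 12.57 on the other 3.

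The same array was low for ATF4 (10.70 against 10.93 to 10.96), ERO1A (9.69 against 10.50 to 10.59), VCP (11.46 against 12.08 to 12.17) and FAF2 (9.44 against 9.78 to 9.82), and high for CREB3L1 (4.79 against 4.50 to 4.54). YAP1 read 6.27 on YAP1/TAZ siRNA replicate 1 against 6.40 to 6.42. Among the controls DNAJB11 read 11.89 on replicate 4 against 11.59 to 11.60, and on replicate 3 MANF read 7.79 against 7.69 to 7.70 and PDIA3 13.70 against 13.97 to 14.01.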

How the results depend on the processing

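Differences were recomputed under 18 alternatives. HSPA5 kept its direction and missed the threshold in 18 of 18 (limma adjusted p 0.0897 to 0.601), and PDIA4 kept its direction in 18 of 18 (0.0176 to 0.396). As the groups of both genes do not overlap, leaving out or reweighting arrays could not turn either sign. Several other alternatives leave the difference itself unchanged, so the kept directions are no support for them. PDIA4 passed with array quality weights (0.51), without YAP1/TAZ siRNA replicate 2 (0.55) and with the arrays that stood apart as a block (0.49). HERPUD1 passed without both of those arrays (−0.78). The count of members changed was thus 1 in each of these 4 settings and 0 in the other 14, and from 0 to 1 with 1 array left out. In the pathway lists 2 genes changed with array weights (MBTPS1 and VKORC1L1) and 1 with those arrays as a block (VKORC1L1). With 1 array left out the difference ran from 0.44 to 0.55 for PDIA4 and from −0.62 to −0.34 for HSPA5. Differences near 0 turned sign. PDIA6 was 0.046 with array weights, 0.06 without both arrays and −0.063 to 0.043 with 1 left out, CALR 0.03 without both arrays and −0.089 to 0.068 with 1 left out, and HYOU1 −0.011 after quantile normalization and −0.018 to 0.11 with 1 left out. With the replicate block, PDIA4 was 0.49 (limma adjusted p = 0.396) and HSPA5 −0.55 (0.561), 0 members changed, and 3 genes passed in all against 48. Over all 18 alternatives that count ran from 3 to 559. Fewer arrays or genes tested shape some of these counts, and the cause of the others was not tested. The deposited table holds no background level, which limits DNAJB9, SDF2L1 and XBP1 most, since they lay nearest to the array medians.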

Other observations

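Cytosolic and mitochondrial chaperones, which the UPR does not control as a group, had a median difference of 0.03 over 17 measured, against 0.01 over all genes. At an unadjusted limma p under 0.05, 4 were higher and 0 lower, against 7.13% and 3.19% of all genes, and 0 passed the adjusted threshold. HSPH1, an HSP110 exchange factor of the cytosol, was the highest, with a difference of 0.36 (limma adjusted p = 0.324). DNAJB1, an HSP40 co-chaperone induced by heat shock, was the lowest, with −0.15 (limma adjusted p = 0.794).

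The ERSE or ERSE-II letters were found in 44 genes of the RefSeq promoter table. Of the 36 that are no member 29 were measured, a list made after the values were seen, and 0 passed the adjusted threshold, with a median difference of 0.03 and 15 above 0. CANX (0.03), CRELD2 (−0.01), FICD, which modifies BiP by AMPylation (−0.08), and SERP1, a translocon-associated protein (0.06), were among them, the last pair named after their values were seen. At an unadjusted limma p under 0.05, 1 of the 29 was higher and 1 lower, against 7.13% and 3.19% of all genes. They were ZNF143, a transcription factor, at 0.20, and PLS3, an actin-bundling plastin, at −0.27, both named for these values.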
